A study of Mus musculus with 20 samples.

Results

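The photoreceptor layer of the mouse retina was compared between dark-adapted and light-adapted mice, with 2 arrays from mice kept for 3 h in the dark and 2 arrays from mice kept for 6 h in the light. These 4 arrays were taken from a set of 20 by their labels, which name the tissue as the outer nuclear layer with the outer and inner segments. All mice were C57BL/6 animals of 7 to 8 weeks with no genetic change named in the labels, and the layer was cut out of the retina by laser capture. Illumination was at most 0.4 lux for the dark and 450 lux for the light. The groups thus differ in both the illumination and the length of adaptation, and the 2 cannot be told apart here. The labels do not say how many animals stand behind an array or whether replicates are separate animals, so p-values measure only the spread between these samples, which may be technical for the dark arrays; the light arrays differed in Y-linked RNA, as given below. The other 16 arrays hold the inner nuclear, inner plexiform and ganglion cell layers and the whole retina under the same adaptations, 2 arrays a group. They enter the model as a shared estimate of spread and serve below to ask where the photoreceptor layer differs.

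Rods and cones hyperpolarise in light, when their opsins activate transducin and phosphodiesterase and the cyclic GMP-gated channels close. In the dark these channels stay open, sodium and calcium enter the outer segment, the sodium pump of the inner segment works against that current, and glutamate is released steadily from the synaptic terminal. Mouse cones carry a short-wavelength opsin, a medium-wavelength opsin or both, with the short-wavelength form more abundant in the ventral retina.

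The markers of the layer were checked first. The summed intensity of 14 rod and cone markers was 7751.5 and 7534.2 in the dark arrays and 7540.4 and 8172.2 in the light arrays, against 679 to 2414.8 in the arrays of the other layers. Opn1sw, which differs between the adaptations, is 1 of these markers, and the other 13 summed to 7750.1 and 7532.7 in the dark arrays and 6912.4 and 7615.5 in the light arrays. The 4 arrays had median intensities of 40.1 to 40.6. They correlated with each other at 0.924 to 0.941 across the genes tested below, each read by 1 probe set. Replicates of one adaptation correlated at 0.937 for dark and 0.935 for light, within the range of the dark-light pairs. Replicate 1 of the light arrays stood apart in 1 respect. The median of 30 Y-linked probe sets was 16.95 and 12.25 in the dark arrays, 243.4 in light replicate 1 and 19.9 in light replicate 2. Xist, the RNA of the inactive X chromosome, was at 117.3 and 174.1 in the dark arrays, 23.2 in light replicate 1 and 210.9 in light replicate 2.

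Of 15057 genes tested with limma, 7 differed between dark and light in the photoreceptor layer at an adjusted p under 0.05, which is 0.0465% of all genes. Opn1sw, the short-wavelength cone opsin, was lower in the dark (0.00664% of genes were called lower). The other 6 were higher in the dark (0.0398%): Paip2, Nlgn2, Atp1b3, Slc1a1, Chst10 and Zhx2. The absolute differences of the 7 genes were 1.59 or more on the log2 scale. For 11969 genes (79.5%) the 95% interval of the difference lay within a log2 of -1 to 1. This count includes genes at or near the floor of 8 in the layer, which were tested because of their level in other tissues. Thy1, a ganglion cell marker, had 8.9 and 1.3 in the dark arrays against 5.5 and 7.6 in the light arrays. The floor holds the difference of such genes near 0, so their intervals do not bound a change. In a bulk sample, fewer cells of a type and less RNA per cell cannot be told apart, and this holds for every gene described here. Leaving out dark replicate 1, dark replicate 2 or light replicate 2 left 2 calls, Opn1sw and Paip2, and leaving out light replicate 1 left 3, those genes and Nlgn2; each such fit has 1 array in a group, assumed to vary like the others. With no filter on dim probe sets 4 genes passed and with array weights 12; 2 passed without the 5 arrays of the series that carried Y-linked signal, which leaves 1 light array of the layer, while all 7 passed with that signal as a covariate, and the 6 genes higher in the dark had differences of 1.57 to 2.28 in the first of these fits and 1.64 to 2.28 in the other.

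**Figure D1:**
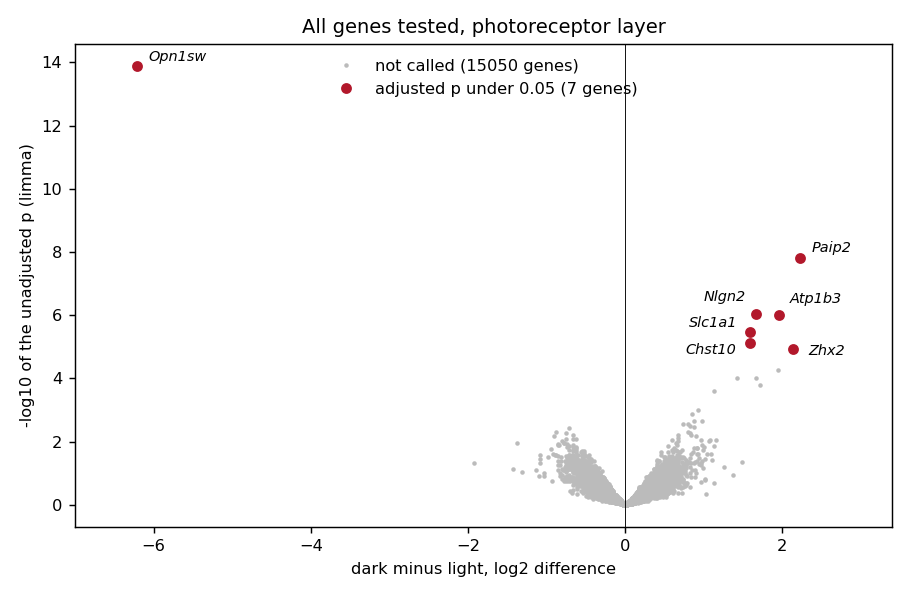
Each point is 1 of 15057 genes in the photoreceptor layer, with the dark minus light difference in log2 intensity on the horizontal axis and the -log10 of limma's unadjusted p on the vertical axis. The 7 genes with an adjusted p under 0.05 are red and named; Opn1sw lies far to the left at -6.21 and the other 6 lie between 1.59 and 2.23.

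Opn1sw encodes the opsin of short-wavelength cones and lies on chromosome 6. Its intensity was 1.4 and 1.5 in the dark arrays, against 628 and 556.7 in the light arrays. Both dark values lay under the floor of 8 that was set before taking log2, and both light values were far above it. With the dark arrays set to the floor, Opn1sw was at least 73.9-fold lower in the dark, a log2 difference of -6.21 ± 0.26 (SE, n = 2 against 2, adjusted p = 2e-10). It was called under each of the 20 alternative settings, with the highest adjusted p, 0.038, under a filter at a log2 value of 7. A single probe set measures it. The promoter window of this gene is shown because the gene had the largest difference of all genes tested. It was taken from RefSeq (GRCm38.p6), runs from 250 bases before to 50 bases after the annotated start, and lies on the minus strand at chr6:29380464-29380763. The letters CACGTG (E-box), TGACG (the core letters of the cyclic AMP response element) and TAATCC (a Crx-type homeobox site) were searched on both strands, and none of the 3 is in this window, so no base is in capitals.
Opn1sw promoter: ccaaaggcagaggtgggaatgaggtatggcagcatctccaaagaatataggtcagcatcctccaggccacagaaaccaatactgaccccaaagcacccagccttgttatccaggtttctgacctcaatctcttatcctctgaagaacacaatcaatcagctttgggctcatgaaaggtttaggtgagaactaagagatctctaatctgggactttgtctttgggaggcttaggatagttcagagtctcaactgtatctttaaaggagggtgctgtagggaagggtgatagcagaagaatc

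Paip2, on chromosome 18, encodes a repressor of translation that binds the poly(A)-binding protein. Its intensity was 245.6 and 252.4 in the dark arrays, against 55 and 51.2 in the light arrays. The groups did not overlap and the replicates of each lay close together. Paip2 rose in the dark by 2.23 ± 0.22 on the log2 scale, a 4.69-fold difference (adjusted p = 0.00011), and it too was called under each of the 20 alternatives. Its relative Paip2b, tested as a member of the poly(A)-binding protein partner list, had 154.6 and 173.9 in the dark arrays against 165.7 and 193.5 in the light arrays, a difference of -0.13 ± 0.18 (95% interval -0.50 to 0.24). The Paip2b arrays overlapped. Of 12 tested partners of the poly(A)-binding protein 1 was called, Paip2 itself, and the list's median difference was 0.13.

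Nlgn2, on chromosome 11, encodes neuroligin 2, an adhesion protein known from the postsynaptic side of inhibitory synapses. Its intensity was 482 and 547.6 in the dark arrays, against 186.4 and 140.6 in the light arrays. Both dark arrays were far above both light arrays. The log2 difference was 1.67 ± 0.22 (3.17-fold, adjusted p = 0.0038).

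Atp1b3, on chromosome 9, encodes the beta-3 subunit of the sodium pump. Its intensity was 149.5 and 164 in the dark arrays, against 37.7 and 42.8 in the light arrays. It rose in the dark by 1.96 ± 0.26 (3.90-fold, adjusted p = 0.0038). A second probe set of the gene read 141 and 161.3 in the dark against 38.3 and 42.9 in the light, a difference of 1.90. Both probe sets thus separated the groups in the same way. Their values were nearly equal, and whether they read the gene independently was not tested. The other beta subunits differed from this picture: Atp1b1 had 39 and 58.1 in the dark against 36 and 31.9 in the light (0.49 ± 0.47, adjusted p = 1). Atp1b2 had 694.1 and 719.5 in the dark against 694.7 and 882.1 in the light (-0.15 ± 0.34, 95% interval -0.88 to 0.58), and its groups overlapped. Of 9 tested genes of the sodium pump and inner segment ion transport list, Atp1b3 was the 1 called, and the list's median was -0.04.

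Slc1a1, on chromosome 19, encodes the glutamate and aspartate transporter EAAT3. Its intensity was 408.2 and 411.2 in the dark arrays, against 134.5 and 138.1 in the light arrays. The replicates of each adaptation were nearly equal. Slc1a1 rose in the dark by 1.59 ± 0.24 (3.01-fold, adjusted p = 0.011). The other glutamate transporters did not pass the test. Slc1a2, the transporter GLT-1, had 173.6 and 185.6 in the dark against 163.2 and 227.4 in the light (-0.10 ± 0.32). Slc1a7, the transporter EAAT5 of photoreceptor and bipolar terminals, had 126.6 and 83.5 in the dark against 104.4 and 139.1 in the light (-0.23 ± 0.28). Slc17a7, which loads glutamate into synaptic vesicles, had 692.2 and 839.8 in the dark against 637.4 and 902.4 in the light (0.01 ± 0.32). Over the 8 transporters the median difference was -0.15, with 1 called.

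Chst10, on chromosome 1, encodes the sulfotransferase that completes the HNK-1 carbohydrate of neural cell surfaces. Its intensity was 256.5 and 253.1 in the dark arrays, against 84.1 and 85.7 in the light arrays. The difference was 1.59 ± 0.25 (3.00-fold, adjusted p = 0.020). Zhx2, on chromosome 15, is a transcriptional repressor with zinc fingers and homeoboxes. It had 143.2 and 141.7 in the dark arrays, against 25.5 and 41.1 in the light arrays. Its light replicates were less alike than those of Chst10, and the groups of both genes stayed apart. The difference of Zhx2 was 2.14 ± 0.35 (4.40-fold, adjusted p = 0.026).

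**Figure D2:**
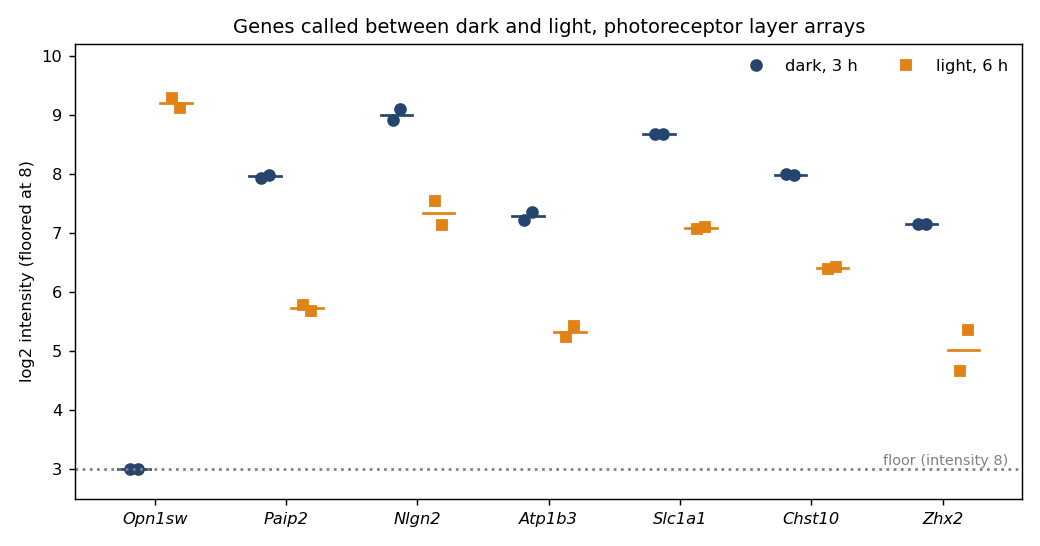
The log2 intensity of the 7 called genes is plotted for each photoreceptor layer array, with dark arrays as circles on the left and light arrays as squares on the right of each gene; short lines are group means and the dotted line is the floor. Opn1sw sits at the floor in both dark arrays, and in the other 6 genes both dark arrays lie above both light arrays.

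The RefSeq table held promoter windows for 5 of the 7 called genes. Windows of Atp1b3 and Nlgn2 are shown since they were those of the called genes with a motif match. The Atp1b3 window printed here is at chr9:96363666-96363965 and that of Nlgn2 at chr11:69837735-69838034, both on the minus strand of GRCm38.p6. Capitals mark the matches to CACGTG and TGACG.
Atp1b3 promoter: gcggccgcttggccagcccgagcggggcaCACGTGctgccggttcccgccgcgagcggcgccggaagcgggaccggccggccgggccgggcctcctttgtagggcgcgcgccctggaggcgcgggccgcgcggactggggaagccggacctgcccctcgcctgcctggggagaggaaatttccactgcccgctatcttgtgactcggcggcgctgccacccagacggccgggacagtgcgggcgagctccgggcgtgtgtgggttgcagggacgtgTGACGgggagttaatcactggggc
Nlgn2 promoter: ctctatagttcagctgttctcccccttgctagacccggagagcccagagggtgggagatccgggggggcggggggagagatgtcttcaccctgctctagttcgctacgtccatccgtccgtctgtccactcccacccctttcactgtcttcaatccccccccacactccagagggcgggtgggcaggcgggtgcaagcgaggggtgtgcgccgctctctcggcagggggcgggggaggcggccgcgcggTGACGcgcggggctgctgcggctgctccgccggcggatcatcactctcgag
In Atp1b3 both CACGTG and TGACG were present in this window, and the window of another annotated start of the gene held TGACG on the opposite strand. Among the 5 windows of called genes higher in the dark, 1 held CACGTG, 3 held TGACG and 0 held TAATCC. Over 14907 windows of 11887 tested genes, 9% held CACGTG, 26.9% TGACG and 5.98% TAATCC. The windows of Slc1a1 and Chst10 held none of the 3. A match describes these letters and no binding was measured.

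The next comparison asked whether the dark-light differences of the photoreceptor layer departed from those in the other 3 layers. In the interaction test, 6 genes had a dark effect that differed from the mean dark effect of the inner nuclear, inner plexiform and ganglion cell layers (0.0398% of genes). These were Opn1sw (-6.21 ± 0.29, adjusted p = 2.1e-09), Atp1b3 (2.90 ± 0.30, adjusted p = 0.00019), Slc1a1 (2.56 ± 0.27, adjusted p = 0.00019), Nlgn2 (1.87 ± 0.26, adjusted p = 0.0050), Paip2 (1.80 ± 0.26, adjusted p = 0.0059) and Chst10 (1.75 ± 0.29, adjusted p = 0.034). Zhx2 had an interaction of 2.29 ± 0.40 that did not pass (adjusted p = 0.061). In the other 3 layers Opn1sw was between 1 and 8.5 in every array, at or near the floor. Its interaction thus restates its difference in the photoreceptor layer. Chst10 was between 62.6 and 99.6 in their dark arrays and between 72.1 and 117.5 in their light arrays, near its photoreceptor layer level in light. Nlgn2 was at 191.6 to 327 in their dark arrays and at 186.4 to 369.6 in their light arrays.

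For 3 genes the other layers moved the interaction as well. Slc1a1 had 19.9 and 37 in the dark arrays of the inner plexiform layer against 289.9 and 301.2 in its light arrays, a difference of -3.44 ± 0.24 (adjusted p = 7.4e-07). In that layer 1.83% of genes were called. Slc1a1 was thus higher in the dark in the photoreceptor layer and lower in the dark in the inner plexiform layer. Atp1b3 was at -1.18 ± 0.26 in the inner plexiform layer (adjusted p = 0.035) and at -1.56 ± 0.26 in the inner nuclear layer (adjusted p = 0.13). Its intensity there was 4.9 and 6.9 in dark against 21.1 and 15.6 in light, and 5.1 and 4 in dark against 25.7 and 21.7 in light, so the dark values lay under the floor. Paip2 was at 0.98 ± 0.22 in the inner plexiform layer (adjusted p = 0.037), at 1.25 ± 0.22 in the ganglion cell layer (adjusted p = 0.22) and at -0.95 ± 0.22 in the inner nuclear layer (adjusted p = 1). When the inner plexiform layer's light arrays were left out, 3 genes passed the interaction test in place of 6. The value of Slc1a1 was 1.32 ± 0.29 in that fit and did not pass (adjusted p = 0.75). Nlgn2 (1.72 ± 0.28, adjusted p = 0.053) and Chst10 (1.68 ± 0.31, adjusted p = 0.17) did not pass in it either. Opn1sw, Atp1b3 and Paip2 did. With the filter at a log2 value of 7 the interactions of Opn1sw (adjusted p = 0.15) and Atp1b3 (adjusted p = 0.24) kept their size and did not pass. Without dark replicate 2 or light replicate 2 of the photoreceptor layer 3 passed, and without dark replicate 1 or light replicate 1 there were 4.

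The whole retina also holds photoreceptors and shares no array with the dissected layer. The labels do not say whether the same animals lie behind both. Light replicate 1 carried Y-linked signal in each, with medians of 243.4 in the layer and 193.1 in the whole retina. Of 15057 genes 4 were called between dark and light in the whole retina (0.0266%), and all 4 were among the 7 of the photoreceptor layer. Opn1sw had 4.5 and 2.9 in dark whole retinas against 594.1 and 600.8 in light ones (-6.22 ± 0.26, adjusted p = 1.9e-10). Slc1a1 had 589.9 and 592.4 against 140.1 and 152.4 (2.02 ± 0.24, adjusted p = 0.0011). Zhx2 had 145.9 and 131.3 against 38.5 and 21.6 (2.26 ± 0.35, adjusted p = 0.030). All 3 genes separated the adaptations in the same direction as in the dissected layer. Atp1b3 had 209.8 and 195.4 in dark whole retinas against 68.3 and 64.8 in light ones (1.61 ± 0.26, adjusted p = 0.047).

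The remaining 3 genes were not called in the whole retina. Paip2 had 266 and 276.4 in dark whole retinas against 136.6 and 125 in light ones, groups that did not overlap (1.05 ± 0.22, adjusted p = 0.56). Nlgn2 had 161.4 and 156.2 against 143 and 153.5 (0.10 ± 0.22). Chst10 had 63 and 65.6 against 83.7 and 60.8 (-0.15 ± 0.25), with overlapping arrays. The difference between the photoreceptor layer and whole retina effects was itself tested with limma, and 0 genes passed, with 149 (0.99%) at an unadjusted p under 0.05. It was 1.57 ± 0.31 for Nlgn2, 1.74 ± 0.35 for Chst10 and 1.18 ± 0.31 for Paip2, each with an adjusted p of 1.

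**Figure D3:**
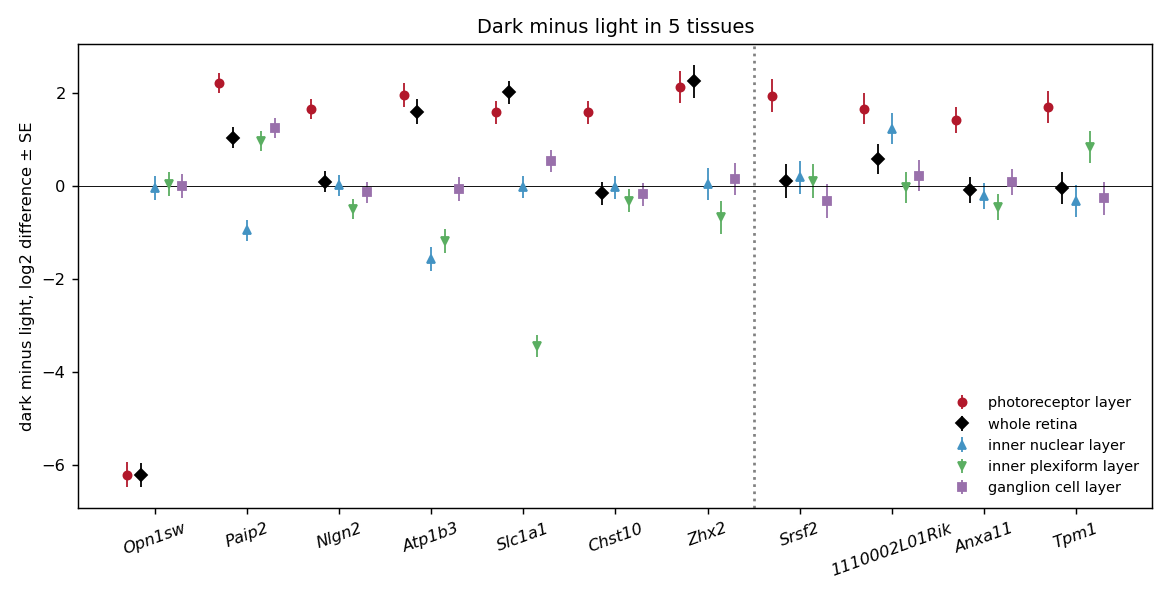
The dark minus light difference in log2 intensity is plotted with its SE for 5 tissues, with the 7 genes called in the photoreceptor layer to the left of the dotted line and the next 4 genes by p to its right. Opn1sw, Slc1a1, Zhx2 and Atp1b3 lie on the same side of 0 in the photoreceptor layer and whole retina, and Slc1a1 drops to -3.44 in the inner plexiform layer.

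Another 4 genes lay just beyond the threshold on the higher side. Srsf2, an SR protein of the splicing machinery, had 449.4 and 485.7 in the dark arrays against 119.6 and 122.2 in the light arrays (1.95 ± 0.36, adjusted p = 0.099). Anxa11, a calcium-dependent phospholipid-binding annexin, had 362.1 and 254.7 against 127.8 and 101.3 (1.42 ± 0.28, adjusted p = 0.16). Tpm1, which encodes a tropomyosin of actin filaments, had 131.9 and 124.8 against 40.8 and 37.9 (1.71 ± 0.35, adjusted p = 0.22). The groups of each of these genes did not overlap. Each passed under 2 or 3 of the alternatives. The gene 1110002L01Rik had 85.1 and 111.7 in the dark arrays against 27.5 and 34.2 in the light arrays (1.67 ± 0.33, adjusted p = 0.16), and it passed under 3. Srsf2 was at 448.6 and 384.4 in dark against 385 and 384.2 in light whole retinas, and at 74.6 to 212.6 in the arrays of the other 3 layers. Both whole retina groups thus lay near its dark level in the photoreceptor layer. Of the 31 tested genes for RNA processing and splicing 0 were called, 1 had an unadjusted p under 0.05 (Srsf2), and the median difference was 0.

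On the lower side the list was short. After Opn1sw the 9 smallest p values belonged to Gm10433, Vat1l, Ankrd54, Ccdc136, Trim62, Nova2, Lct, Med16 and Laptm5, each with an adjusted p of 1. Vat1l had 26.3 and 24.1 in the dark arrays against 45.1 and 47.8 in the light arrays (-0.88 ± 0.27). Nova2, a neuronal splicing regulator, had 71.7 and 88.5 against 119.6 and 134.5 (-0.67 ± 0.22). Laptm5, a lysosomal protein of blood and immune cells, had 23.8 and 26.2 against 51.8 and 36.6 (-0.80 ± 0.27). In all, 224 genes (1.49%) had an unadjusted p under 0.05, 119 higher in the dark (0.79%) and 105 lower (0.697%).

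Among cone transcripts Opn1sw stood alone in passing the test. Of 12 tested cone phototransduction genes 1 was called, and the list's median difference was 0.06. Opn1mw, the medium-wavelength opsin, had 292.8 and 343.5 in the dark arrays against 165.7 and 190.5 in the light arrays. Its groups did not overlap, and its difference ran opposite to that of Opn1sw (0.84 ± 0.34, unadjusted p = 0.025, adjusted p = 1). Arr3, cone arrestin, had 290.7 and 293.2 in the dark against 230.9 and 186.7 in the light (0.49 ± 0.41, adjusted p = 1). Pde6h, the inhibitory subunit of the cone phosphodiesterase, had 88.8 and 98.3 against 78.1 and 75.1 (0.29 ± 0.30). Cnga3, a subunit of the cone channel, had 58.8 and 58.8 against 56.5 and 51.2 (0.13 ± 0.26). None of these 4 genes passed. Of the 12 cone genes 4 did not overlap with dark higher and 2 with dark lower, where 16.1% and 15.9% of all genes did so.

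Genes that mark the dorsal and ventral retina were measured beside the opsins, since the opsins are unevenly spread over that axis. Of 8 dorsal genes 0 were called, with a median of 0.10. All 8 had an interval within a log2 of -1 to 1, where 79.5% of all genes did so. Apart from Tbx2 the dorsal genes read 22.9 to 84.2, against array medians of 40.1 to 40.6. Such dim values do not measure the dorsal share of the sample, which was not tested. Of 5 tested ventral genes Opn1sw was the 1 called. Vax2, a ventral homeobox gene, had 117.3 and 119.8 in the dark arrays against 148 and 141.4 in the light arrays (-0.29 ± 0.20, 95% interval -0.71 to 0.13). Its relative Vax1 had 116.1 and 122.9 against 90.6 and 93.7 (0.37 ± 0.20), the opposite direction. Tbx5, a dorsal T-box factor, had 25.6 and 31 against 25 and 22.9 (0.24 ± 0.31). The differences of the ventral genes other than Opn1sw and of the dorsal genes lay between -0.29 and 0.37.

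No rod transcript passed the test. Of 19 tested rod phototransduction genes 0 were called with limma and 0 had an unadjusted p under 0.05; the median difference was 0.02 and the range -0.41 to 0.49. For 9 of the 19 the 95% interval stayed within a log2 of -1 to 1, where 79.5% of all genes did so. Gnat1, the rod transducin, had 1870.4 and 2053.3 in the dark arrays against 1757.5 and 2062.7 in the light arrays (0.04 ± 0.55). Its 95% interval was wide, at -1.11 to 1.19, and its sign turned under some of the alternatives. Sag, rod arrestin, had 783.6 and 703.5 in the dark against 871.6 and 953.9 in the light (-0.30 ± 0.47). Rcvrn, recoverin, had 627.3 and 521.5 against 427.9 and 385.1 (0.49 ± 0.39), and Guca1a, which activates guanylate cyclase, had 354.3 and 203.1 against 367.1 and 348.4 (-0.41 ± 0.34). Sag and Rcvrn did not overlap between the adaptations, in opposite directions, and the Guca1a arrays did. Of the 19 rod genes 1 did not overlap with dark higher and 1 with dark lower, where 16.1% and 15.9% of all genes did so.

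**Figure D4:**
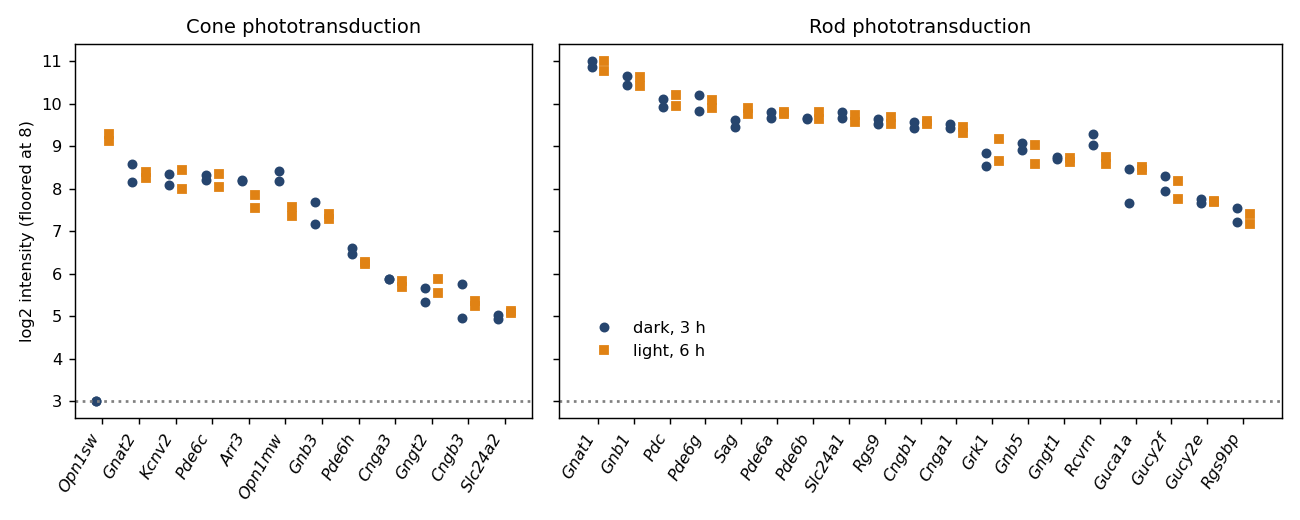
The log2 intensity of 12 cone and 19 rod phototransduction genes is plotted for each photoreceptor layer array, with dark arrays as circles on the left and light arrays as squares on the right of each gene and the floor of 8 as a dotted line. Opn1sw alone splits between the floor and a bright level, and the other genes of both sets lie close together.

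Genes of photoreceptor structure and transcription had small differences. Of 23 tested members 0 were called and 0 had an unadjusted p under 0.05, and the median was 0.12. In 9 of them the dark arrays lay above the light arrays and in 0 below, where 16.1% and 15.9% of all genes did so. Impg2, a proteoglycan of the matrix around the segments, had 310.3 and 296.3 in the dark arrays against 183.2 and 262.4 in the light arrays (0.47 ± 0.33). Samd7, a rod silencing factor, had 122.3 and 121.3 against 80.3 and 99.3 (0.45 ± 0.23). Nrl, the leucine zipper factor that sets rod identity, had 198.3 and 156.4 against 148.5 and 125 (0.37 ± 0.26). The median of this list lay between 0.03 and 0.22 over the alternatives. In the visual cycle list 0 of 10 were called, and the median was -0.04. Rdh10, a retinol dehydrogenase, had 175 and 212.6 in the dark against 153.2 and 123.4 in the light (0.49 ± 0.22, unadjusted p = 0.040, adjusted p = 1).

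Synaptic and ciliary genes gave no call either. Of 20 genes of the photoreceptor and ribbon synapse 0 passed, with a median of 0.06. Lrit2 had 109.9 and 101.2 in the dark arrays against 76.2 and 73.1 in the light arrays (0.50 ± 0.28), and Cplx4, a complexin of ribbon synapses, had 495 and 430.8 against 346.4 and 393 (0.32 ± 0.31). Stx3, the syntaxin of ribbon synapses, ran the other way with 347.8 and 389.5 against 425.1 and 436.3 (-0.23 ± 0.20). In this list 18 of 20 intervals lay within a log2 of -1 to 1, where 79.5% of all genes did so. Of 28 genes of the primary cilium 0 passed, with a median of 0.01 and a range of -0.18 to 0.39.

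Light-driven and clock genes were looked at as further candidates for a response to adaptation. Of 28 immediate early genes 0 were called, 1 had an unadjusted p under 0.05, and the median was -0.07. That gene was Nr4a1, an orphan nuclear receptor, with 145.8 and 188.9 in the dark arrays against 88.6 and 103.1 in the light arrays (0.80 ± 0.23, unadjusted p = 0.0028, adjusted p = 1). Its groups did not overlap. Fos, a subunit of AP-1, had 37.4 and 49.2 in the dark against 48.6 and 43.3 in the light (-0.10 ± 0.28), and Egr1, a zinc finger factor, had 29.3 and 26.6 against 28.4 and 23.6 (0.11 ± 0.37). Both overlapped between the adaptations. Of 20 clock genes 0 passed and 0 had an unadjusted p under 0.05, with a median of 0.02. Per1, a repressor of the clock, had 105.3 and 73.2 in the dark arrays against 84.1 and 110.1 in the light arrays (-0.13 ± 0.25). Nr1d1, the receptor REV-ERB alpha, had 251 and 271 against 204.6 and 258 (0.18 ± 0.31), and Dbp, an output factor of the clock, had 84.9 and 107 against 108.9 and 88.3 (-0.04 ± 0.29).

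In the list for melatonin, dopamine and cyclic AMP signalling 0 of 13 genes were called. Drd4, the dopamine receptor of photoreceptors, had 261.8 and 281.7 in the dark arrays against 175.3 and 206.9 in the light arrays. The groups did not overlap (0.51 ± 0.22, unadjusted p = 0.031, adjusted p = 1). Pde4d, a cyclic AMP phosphodiesterase, had 65.7 and 45 against 79.4 and 69.6 (-0.45 ± 0.24). Aanat, the penultimate enzyme of melatonin synthesis, was dim, with 33.3 and 29.2 against 32.9 and 32.9 (-0.08 ± 0.26).

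MicroRNAs of the retina are known to change with light adaptation in the mouse, and the array holds probe sets for their genes. These probe sets stand for the genes of the hairpins, and the mature miRNAs were not measured. The mature sequences of 5 of these genes, from RefSeq (GRCm38.p6), are shown so that their seeds can be compared. Capitals mark the seed, bases 2 to 8.
miR-182-5p: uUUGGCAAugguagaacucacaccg
miR-96-5p: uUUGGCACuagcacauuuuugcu
miR-183-5p: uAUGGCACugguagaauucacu
miR-204-5p: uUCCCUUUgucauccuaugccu
miR-211-5p: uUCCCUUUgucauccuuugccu
The seeds of miR-204-5p and miR-211-5p are identical, and those of the other 3 differ from each other. Mir182 had 19.5 and 17.5 in the dark arrays against 12.5 and 14.1 in the light arrays (0.48 ± 0.43, adjusted p = 1), dim values that did not overlap. Mir96 had 17 and 11.5 against 13.2 and 15.8 (-0.05 ± 0.51), and Mir211 had 145.8 and 189.2 against 139.3 and 198.7 (0.00 ± 0.24). Mir183, at 3.8 to 5.3, and Mir204, at 11.3 to 13.4 over the 4 arrays, did not pass the filter on dim probe sets and were not tested. Mir182 was thus the single one of these loci with separated groups, at a level near the floor. Of all genes 16.1% were separated with dark higher, so this separation does not set Mir182 apart. Of 19 genes of the microRNA machinery 0 were called, with a median of -0.02 and a range of -0.24 to 0.27.

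Metabolic and stress genes completed the lists. Of 27 genes of oxidative phosphorylation 0 passed (median 0.02) and of 24 for glycolysis and glucose uptake 0 passed (median 0.11). Cox7b, a subunit of cytochrome oxidase, had 108.1 and 83.3 in the dark arrays against 60.6 and 72.4 in the light arrays (0.52 ± 0.25). Txnip, which restrains glucose uptake, had 24.6 and 34.7 against 22.1 and 19.5 (0.49 ± 0.31), and Ldhb, a lactate dehydrogenase subunit, had 64.5 and 59 against 78.5 and 77.1 (-0.33 ± 0.21). Of 17 lipid genes 0 passed (median 0.02), with fatty acid synthase Fasn at 70.4 and 49.9 in the dark against 85.1 and 77.4 in the light (-0.45 ± 0.24). Arrays of the adaptations did not overlap in 4 genes of oxidative phosphorylation with dark higher and 4 with dark lower, in 7 and 5 for glycolysis, and in 4 and 4 of the lipid list, where 16.1% and 15.9% of all genes did so.

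Of 21 heat shock and unfolded protein response genes 0 passed, and the median was 0.14, the highest of the lists. The differences ran from -0.70 to 0.57. In 10 of the 21 the dark arrays lay above the light arrays and in 1 below, where 16.1% and 15.9% of all genes did so. Ddit3, the stress factor CHOP, had 74.4 and 66.2 in the dark arrays against 47.8 and 46.8 in the light arrays (0.57 ± 0.24, unadjusted p = 0.032, adjusted p = 1). Hspa5, the chaperone BiP of the endoplasmic reticulum, had 204.1 and 234.4 against 147.5 and 160.9 (0.51 ± 0.28). Hspb1, a small heat shock protein, had 45.9 and 34.4 in the dark against 41.9 and 55.1 in the light (-0.27 ± 0.26). Dnajb9, a cochaperone of the endoplasmic reticulum, had the lowest difference, with 10.5 and 16 against 18.9 and 23.4 (-0.70 ± 0.74). The median of this list lay between 0.03 and 0.24 over the alternatives. Of 21 genes of retinal stress and injury 0 passed (median -0.04), with Gfap, the glial filament, at 31.6 and 18.8 in the dark against 33.6 and 27.7 in the light (-0.32 ± 0.40). Of 23 cytosolic ribosomal protein genes 0 passed (median 0.11, -0.02 to 0.16 over the alternatives).

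Counted once each, 501 list members were tested and 4 were called (0.798%, against 0.0465% of all genes): Opn1sw, Paip2, Atp1b3 and Slc1a1. Some lists were drawn up with these genes in view, so the share is not independent evidence about the lists. Of 33 lists 27 had 0 called members. Nlgn2, Chst10 and Zhx2 stand in none of them.

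**Figure D5:**
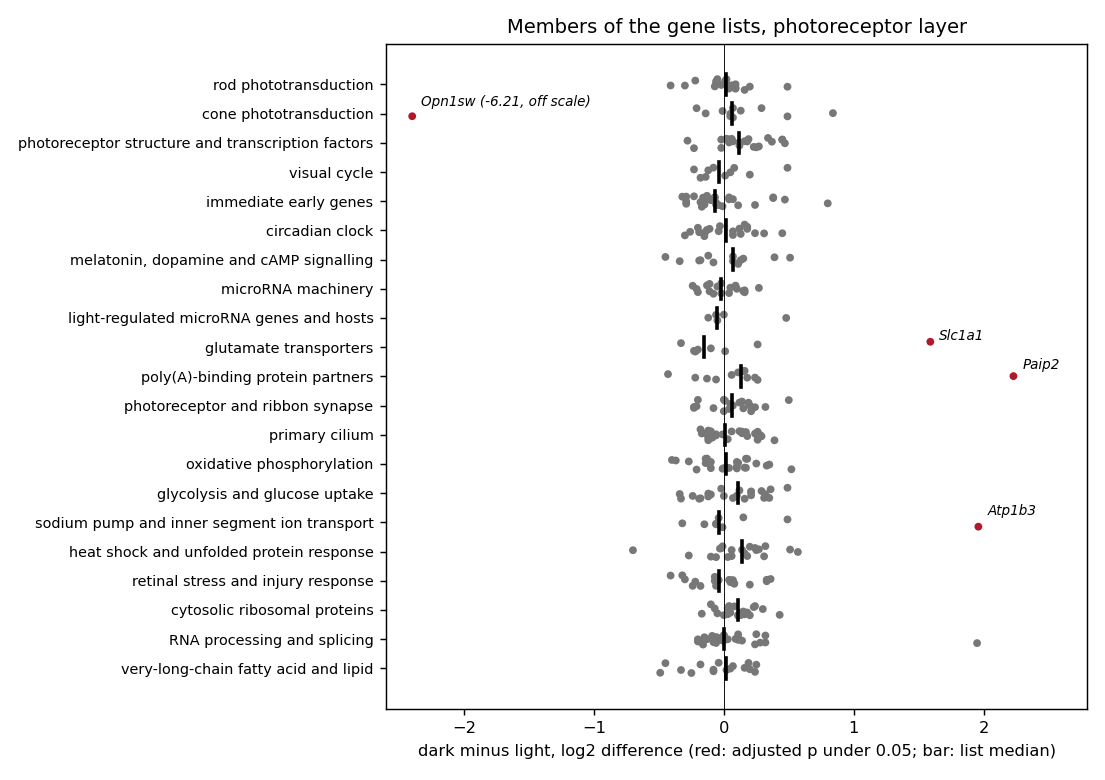
Each point is a tested member of a gene list, placed by its dark minus light difference in log2 intensity in the photoreceptor layer, with 1 list a line, black bars at the list medians and members with an adjusted p under 0.05 in red. Slc1a1, Paip2 and Atp1b3 stand to the right of lists whose medians lie between -0.15 and 0.14, Srsf2 is the grey point at 1.95, and Opn1sw is drawn at the left edge.

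Markers of other cells were summed in each array. The sums hold background and some bright probe sets, such as Nyx at 670.9 to 739.9, and do not measure cell shares. In arrays of the other 3 layers the ganglion cell sum was 1206.8 to 5879.1 and the pigment epithelium sum 835.4 to 1249.4. Both ranges include the sums found here, while the amacrine, Müller glia and vascular sums of those layers were all higher than here. The 14 bipolar markers summed to 1658.1 and 1702.8 in the dark arrays against 1805.1 and 1737.6 in the light arrays, and the 12 amacrine markers to 791 and 820.5 against 826.4 and 816.6. The 15 Müller glia markers summed to 1050.9 and 1080.7 in the dark against 1139.9 and 1087.1 in the light. For bipolar and Müller glia markers both dark sums lay below both light sums, by small amounts, and the amacrine sums overlapped. The 18 pigment epithelium markers summed to 911.2 and 874.6 against 920.7 and 959.4, also lower in both dark arrays. The 7 horizontal cell markers summed to 503.9 and 504.2 against 532.3 and 483.2, the 18 ganglion cell markers to 1550 and 1549.7 against 1563.5 and 1486.5, and the 12 vascular and blood markers to 782 and 830 against 761.3 and 824.7. These 3 sums overlapped. The 13 microglia and astrocyte markers summed to 492.2 and 495.5 in the dark arrays against 501.5 and 533.4 in the light arrays. Of these lists 0 members were called between dark and light, and P2ry12, a microglial receptor, was the single marker under the floor in all 4 arrays. The part of other cells in the called differences was not tested.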

How the data were processed

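Laser-captured photoreceptor layer RNA was labelled with the manufacturer's 2-cycle cRNA protocol and hybridised to Affymetrix arrays. The authors deposited 1 intensity per probe set and array, linear as judged from the values, made with GCRMA, per the submitters' processing notes (version not given); the genome build of the probes is not given in the sources used here. A floor of 8 was applied before log2; 11.3% to 12% of values per photoreceptor array lay under this floor. A probe set was kept if at least 2 of 20 arrays exceeded a log2 of 5, and each gene took its brightest probe set among those with 1 symbol. Limma 3.58.1 (R 4.3.3; 10 group means, 10 residual degrees of freedom, intensity trend, two-sided) gave differences with SE, and p-values were adjusted by Benjamini-Hochberg over 15057 genes (threshold 0.05). With 2 arrays against 2, an exact permutation test cannot give p under 0.333, so none was run. On simulated data with 100 changed genes of each size, 34% of log2 changes of 1 and 83% of changes of 2 were recovered. More changed genes loosen the adjusted threshold, and 7 genes were called here. These shares are thus too high for the present data, where the smallest called difference was 1.59. The number of arrays limits the precision. Genes were named by rule: the 10 smallest p per direction, up to 4 members per list, fixed marker genes, and genes called in the interaction test; further list members (Slc1a2, Slc17a7, Atp1b2, Cnga3, Dnajb9) were chosen after their values were seen. Members and lists were chosen with earlier results of these data known. Alternatives were other normalisations, filters, floors, probe set rules, variance models, array sets, a replicate block and leaving out each array.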

Additional observations from a re-analysis of the deposited data

Results flagged for a closer look

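For 6 genes the dark minus light difference in the photoreceptor layer departed from the mean of that difference in the other 3 layers, by limma's interaction test. The excess was 2.90 for Atp1b3, 2.56 for Slc1a1, 1.87 for Nlgn2, 1.80 for Paip2 and 1.75 for Chst10 on the log2 scale, and -6.21 for Opn1sw. Opn1sw was at or near the floor in every array of the other 3 layers. Its value thus restates its difference in the photoreceptor layer. Nlgn2 and Chst10 had differences in the other 3 layers between -0.49 and 0.02. Slc1a1 and Atp1b3 were lower in the dark in the inner plexiform layer, by -3.44 and -1.18, which adds to their values. Atp1b3 was also at -1.56 in the inner nuclear layer, where it was not called. Its dark intensities in both of these layers lay under the floor of 8. With the filter at a log2 value of 7 the tests of Opn1sw and Atp1b3 did not pass.

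Probe sets that the platform table does not list carried signal too. Of 7869 such probe sets over the filter 3 were called between dark and light when all 25704 probe sets were tested (0.0381%), close to the 8 calls among all 25704 (0.0311%). The first had 464 and 445.3 in the dark arrays against 165 and 137.8 in the light arrays (1.59 ± 0.13, limma adjusted p = 0.00018). The second had 62.5 and 58.8 against 18.9 and 13.4 (1.93 ± 0.24, adjusted p = 0.011). The third was lower in the dark, with 30.2 and 50.2 against 180.5 and 189.6 (-2.25 ± 0.29, adjusted p = 0.012). Their genes are unnamed here.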

How the results depend on the processing

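Of the 20 alternatives, each of the 7 called genes kept its direction in all; Opn1sw and Paip2 were called in 20, Nlgn2 in 16, Atp1b3, Slc1a1 and Chst10 in 14 and Zhx2 in 13. The 7 calls became 4 with no filter on dim probe sets, 12 with array weights, 2 when the 5 arrays carrying Y-linked signal were left out, 7 with that signal as a covariate, and 2 to 3 when 1 photoreceptor array was left out. The 4 called list members were 2 with those 5 left out and 2 in each fit without 1 photoreceptor array. The 6 interaction calls were 3 once the inner plexiform layer's light arrays were dropped, and 3 to 4 without 1 photoreceptor array. Over 19 alternatives Opn1sw, Atp1b3 and Slc1a1 kept the interaction call in 18, Nlgn2 and Paip2 in 15 and Chst10 in 9. Fits with an array left out have fewer arrays; otherwise the cause was not tested. Replicate numbers were not taken as pairs, since the labels do not tie them to animals. The deviations of same-numbered dark and light arrays of the photoreceptor layer correlated at 0.114. Over 45 pairs of groups the correlations were 0.006 to 0.479, with a median of 0.127 and 32 of them over 0.1. All were thus positive, and the main fit does not model what same-numbered arrays may share. With the replicate block there were 10 calls, 9 interaction calls and 5 list members; the 7 genes were among the 10, with Srsf2, Anxa11 and 1110002L01Rik. Light replicate 1 carried Y-linked signal in 4 of the 5 tissues, and so did light replicate 2 of the ganglion cell layer (median 192.2). The 5 arrays with this signal were thus all light arrays, and the dark arrays had medians of 8.6 to 18.65. All probe sets in place of 1 per gene, and the comparison with the whole retina effect, were chosen after seeing the data. Testing all probe sets gave 8 calls, made up of 5 of the 7 genes and 3 unlisted probe sets. Chst10 and Zhx2 were not called in that test. Of 149 named genes that were not called, 4 (Srsf2, Anxa11, Tpm1 and 1110002L01Rik) passed under at least 1 alternative and 42 changed sign under at least 1. Dim probe sets and 2 arrays a group limit what could be detected.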
